A study of Mus musculus with 4 samples.

Results

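The genes described are the 9 BMP and activin receptor genes Bmpr2, Acvr2a, Acvr2b, Bmpr1a, Bmpr1b, Acvr1, Acvrl1, Acvr1b and Eng, of 20923 protein-coding genes with a curated RefSeq transcript. They were listed by name, and a SMAD4 peak was counted for a gene when its summit lay in the gene body or within 50 kb of a transcription start site (TSS), in the mouse build mm10. The data were peak lists from a HT-ChIPmentation of SMAD4, a chromatin immunoprecipitation in which Tn5 transposase inserts the sequencing adapters into chromatin held on beads. The cells were alveolar macrophages (AMs), the macrophages of the airspaces, recovered by bronchoalveolar lavage (BAL) from wild-type C57BL/6J mice of 9 weeks of age with no treatment, and FACS-sorted into aliquots of 200k cells. A combination of a pair of SMAD4 antibodies gave 2 libraries, here replicates 1 and 2, beside 2 input libraries, which enter only as the control level behind each peak. With 1 genotype and 1 condition there is nothing to contrast, and whether the replicates came from separate mice, or from pooled mice, is not given in the sources used here.

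Receptors of the TGFβ superfamily work as complexes of type II and type I serine/threonine kinases. A type II receptor (BMPR2, ACVR2A or ACVR2B) phosphorylates a type I receptor once the ligand has brought them together, and the type I receptor phosphorylates receptor SMADs, which enter the nucleus bound to SMAD4. Among the type I receptors, BMPR1A, BMPR1B, ACVR1 and ACVRL1 act through the BMP-type SMADs and ACVR1B through the activin and TGFβ-type SMADs, while endoglin, the product of Eng, is a co-receptor best known with ACVRL1 in endothelium. These receptors are known for vascular development, bone formation and iron control, and SMAD4 is the partner that both branches share.

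Around the 9 genes, 22 peaks were found, 10 in replicate 1 and 12 in replicate 2. Of these, 12 peaks overlapped a peak of the other replicate by at least 1 bp and formed 6 shared regions, each of 1 peak per replicate. The remaining 10 peaks, 4 in replicate 1 and 6 in replicate 2, had no partner. Shared regions lay around 5 of the 9 genes, with 2 at Acvr1 and 1 each at Acvr2a, Bmpr1a, Acvrl1 and Acvr1b. Bmpr2, Acvr2b and Eng had unpartnered peaks alone, and Bmpr1b had no peak in either replicate. The same search found a shared region around 39.1% of all protein-coding genes, a peak of replicate 1 around 46.6% (6 of the 9 receptor genes), a peak of replicate 2 around 53.4% (8 of 9) and a peak of either around 58.2% (8 of 9). The receptor genes also had longer search windows, with a median of 139.2 kb compared with 100 kb over all protein-coding genes. Per length, their windows held 4.47 shared regions per Mb, the windows of all protein-coding genes 6.03 and the genome 4.16. By length the 9 receptor genes together were thus not ahead of other genes. The window of Bmpr1b, which had no peak, made up 382.3 kb of their 1342.7 kb and lowered their density. The density without Bmpr1b was not computed.

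**Figure D1:**
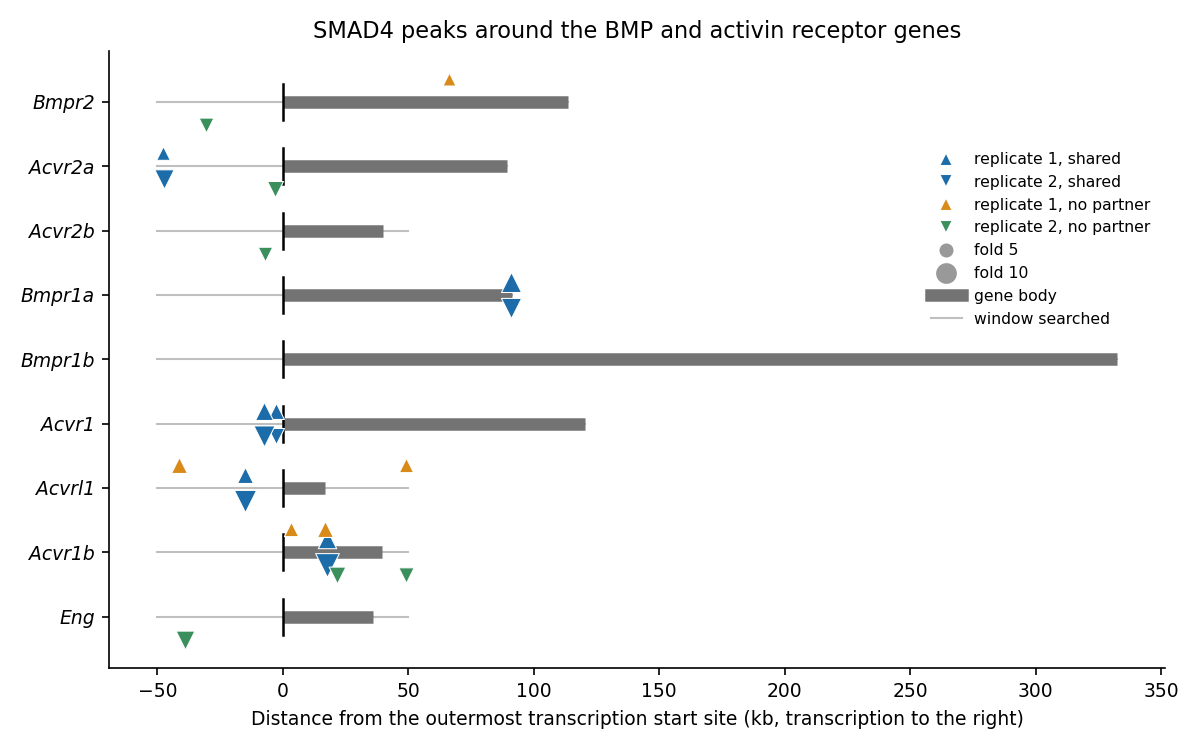
Each row is a receptor gene drawn from its outermost TSS (0) in the direction of transcription, with distance in kb on the horizontal axis, the gene body as a thick bar and the searched window as a thin line. Triangles are peak summits, pointing up for replicate 1 and down for replicate 2, in blue where the replicates overlapped, in orange or green where they did not, with an area in proportion to fold enrichment. No triangle lies at a receptor TSS, the pair closest to one are the Acvr1 summits 2728 bp upstream, and the Bmpr1b row is empty; the peak 49006 bp downstream of the Acvrl1 TSS is drawn again in the Acvr1b row.

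No peak of either replicate lay in a promoter of these genes, defined as 1 kb upstream to 100 bp downstream of a TSS. Over all protein-coding genes, a peak in a promoter was found for 6.96% and a shared region in a promoter for 3.1%. Of the 6 shared regions, 4 were upstream of the receptor gene and 2 inside it. Only the Acvr2a region had the receptor's own TSS as the nearest TSS, while the other 5 lay closer to the TSS of another gene (Mmrn2, Upp2 for both Acvr1 regions, Ankrd33 and Mir6962). Of all protein-coding genes, 20.0% were the nearest by TSS to a shared region in their own window, beside 1 of the 9 here. Without the distance limit the share was 21.5%, beside 2 of 9 (Acvr2a, and Bmpr1b for a region outside its window). When only protein-coding TSS were considered, an alternative added after the data were seen, Acvr1b was also nearest, which made 2 of 9 beside 21.6% within the windows and 3 of 9 beside 23.9% without the limit. With 9 genes, none of these counts sets the receptor genes apart.

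The sequences at the summits show what the shared regions hold. The windows below are 201 bp centred on the mean of both summits (for Bmpr2, on the single summit), in the RefSeq sequence of mm10, plus strand, 5′ to 3′. Capitals mark matches to the 11 searched strings on either strand. The Acvr2a window is printed because its nearest TSS is that of the receptor. The others were chosen after their values were seen, to set the Acvr1, Acvrl1 and Acvr1b regions beside it and to show the SMAD palindrome near Bmpr2. The Bmpr1a region lies in a 3′ UTR and its sequence is not printed.
Acvr2a, chr2:48766545-48766745: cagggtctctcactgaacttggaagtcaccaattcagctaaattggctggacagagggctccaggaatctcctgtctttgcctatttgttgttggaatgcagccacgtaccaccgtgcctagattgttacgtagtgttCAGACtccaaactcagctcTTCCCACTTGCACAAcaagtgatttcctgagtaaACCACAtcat
Acvr1 nearer region, chr2:58569456-58569656: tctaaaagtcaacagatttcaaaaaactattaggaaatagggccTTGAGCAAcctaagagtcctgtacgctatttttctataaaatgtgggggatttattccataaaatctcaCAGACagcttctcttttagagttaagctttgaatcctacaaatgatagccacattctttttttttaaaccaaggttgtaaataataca
Acvr1 farther region, chr2:58574152-58574352: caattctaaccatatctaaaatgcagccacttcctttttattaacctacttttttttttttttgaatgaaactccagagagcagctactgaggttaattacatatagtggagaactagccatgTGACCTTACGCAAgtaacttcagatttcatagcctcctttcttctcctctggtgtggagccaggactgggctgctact
Acvrl1, chr15:101113347-101113547: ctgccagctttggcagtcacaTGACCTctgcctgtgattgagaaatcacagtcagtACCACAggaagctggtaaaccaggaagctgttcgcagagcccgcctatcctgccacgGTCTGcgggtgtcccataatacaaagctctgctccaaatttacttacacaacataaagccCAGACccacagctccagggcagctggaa
Acvr1b, chr15:101191650-101191850: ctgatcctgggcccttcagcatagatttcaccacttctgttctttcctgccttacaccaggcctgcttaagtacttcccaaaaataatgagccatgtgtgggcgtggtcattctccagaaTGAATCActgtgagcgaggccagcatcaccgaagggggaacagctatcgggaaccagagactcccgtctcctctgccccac
Bmpr2, replicate 2 alone, chr1:59733403-59733603: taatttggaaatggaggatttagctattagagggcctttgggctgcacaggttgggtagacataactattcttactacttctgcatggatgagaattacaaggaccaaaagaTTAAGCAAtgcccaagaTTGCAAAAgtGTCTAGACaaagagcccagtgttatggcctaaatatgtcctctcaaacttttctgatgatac

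The strings searched were CAGAC, GTCTAGAC and GGCGCC (SMAD), TTGCNNAA (C/EBP), GAGGAAGT (PU.1), TGANTCA (AP-1), TGTGGT (RUNX), CACGTG (E-box), AGGTCA (nuclear receptor element), GTGGGAA (RBPJ) and TTCNNNGAA (STAT), each on both strands. The SMAD element CAGAC was in 3 of the 6 shared regions (Acvr2a, the nearer Acvr1 region and Acvrl1), compared with 38.8% of all 10964 shared regions. TTGCNNAA, a form of the site of C/EBP factors, which act in myeloid differentiation, was also in 3 (Acvr2a and both Acvr1 regions), compared with 40.9%. TGTGGT was in 3 (Acvr2a, Bmpr1a and Acvrl1; 26.4% of all) and AGGTCA in 3 (Bmpr1a, the farther Acvr1 region and Acvrl1; 15.4% of all). TGANTCA was in the Acvr1b region alone (12.3% of all), where it was the only match, and GTGGGAA in the Acvr2a region alone (4.14% of all). The PU.1 string, the palindrome, GGCGCC, the E-box and the STAT string were in none of the 6, at 8.0%, 0.465%, 1.01%, 3.65% and 8.06% of all shared regions. With only 6 regions, these counts describe the windows and set no string apart. Short strings occur by chance, and a match is not a site. Median GC content was 44.0% in the 6 windows and 43.8% over all shared regions, and the median share of repeat bases was 11.7% and 10%.

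The 6 shared regions were of ordinary or low strength. Fold enrichment, the authors' ratio of fragments stacked at the summit to the control level (each with 1 added), had a median of 5.52 in replicate 1 and 8.19 in replicate 2, compared with 6.82 and 9.48 over all shared regions. The median number of fragments at the summit was 16 in replicate 1 and 18 in replicate 2, compared with 20 and 21. By the smaller fold of both replicates, 4 of the 6 were below the median of all shared regions (6.50), and the highest, at Bmpr1a, ranked 4175 of 10964. The regions were also narrower, with a median of 324.5 bp against 440 bp. Fold was higher in replicate 2 in 6 of 6 regions, as it was in 87.2% of all shared regions, and the lists differ in their background level of control fragments (2.08 in replicate 1 and 1.22 in replicate 2). No difference in binding was read from folds across the lists.

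**Figure D2:**
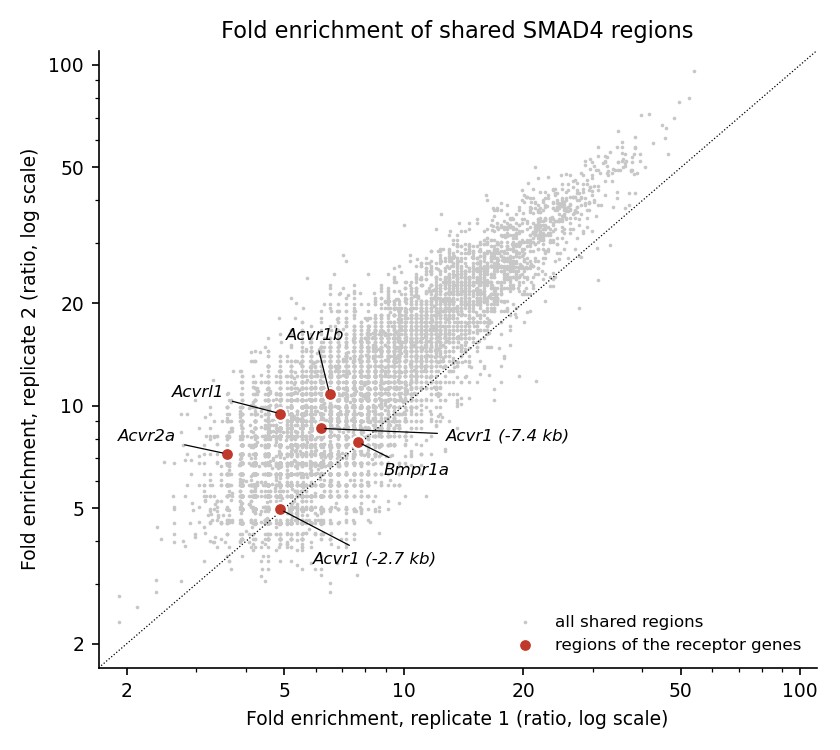
Fold enrichment (ratio, log scales) of replicate 1 on the horizontal and of replicate 2 on the vertical axis for the 10964 shared regions (grey) and the 6 around receptor genes (red), with the line of equal folds dotted and distances from the Acvr1 TSS in parentheses. The red points sit in the lower part of the cloud, from 3.57 to 7.67 in replicate 1 and from 4.96 to 10.8 in replicate 2, where the highest values over all peaks were 54.0 and 96.1.

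Among the type II receptors, Acvr2a, which binds activins and several BMPs, had the single shared region. It was at chr2:48766518-48766825, intergenic, 47464 bp upstream of the Acvr2a TSS and so just inside the 50 kb limit. In replicate 1 its fold was 3.57, from 10 stacked fragments (−log10 q of 2.14), and in replicate 2 it was 7.22, from 15 (9.28). It was the weakest of the 6 regions in replicate 1, at percentile 3.3 of all peaks by fold, and at percentile 54.4 in replicate 2. Peaks of equal fold were given their mean rank. The summits lay 135 bp apart, the widest gap among the 6 regions, and by the smaller fold the region ranked 10760 of 10964. Its window held 4 strings, the most of the 6: CAGAC at 48766683 to 48766687, the RBPJ string read as TTCCCAC at 48766702 to 48766708, directly followed by TTGCACAA at 48766709 to 48766716, and the RUNX string read as ACCACA at 48766736 to 48766741. The C/EBP string spanned the replicate 2 summit, at 48766713, while the replicate 1 summit, at 48766578, was in the part of the window without a match. Replicate 2 had a further peak 3107 bp upstream of the Acvr2a TSS, with a fold of 4.91 and 13 fragments, and no partner within 44285 bp in replicate 1. The gene body of Acvr2a, 89.2 kb long at chr2:48814109-48903264 on the plus strand, had no peak.

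Bmpr2, the type II receptor of BMP ligands, had 1 peak in each replicate, and these were far apart. The replicate 1 peak was in intron 3 of 12, 66394 bp from the TSS at chr1:59830623-59830742, with a fold of 3.25 and 9 fragments, which is the lowest pileup of any peak in that replicate. The replicate 2 peak was intergenic, 30776 bp upstream of the TSS at chr1:59733480-59733598, with a fold of 4.21 and 11 fragments over a control level of 1.85, above the background level. Its nearest TSS was that of Snord11, at 28695 bp. The window printed above holds the SMAD palindrome GTCTAGAC at 59733542 to 59733549, 43 bp from the summit, and C/EBP strings at 59733515 to 59733522 and 59733532 to 59733539. The palindrome was in 69 of the 19015 summit windows of replicate 2 (0.363%) and in 19 of its 7758 unpartnered ones (0.245%). The nearest shared region to the Bmpr2 TSS was 149.8 kb away, past the end of the 113.8 kb gene (chr1:59764279-59878081, plus strand), and had folds of 14.6 and 15.8 near the TSS of Fam117b.

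Acvr2b, which also binds activins, had 1 peak of replicate 2, 7049 bp upstream of its TSS at chr9:119395073-119395191, with a fold of 4.06 and 8 fragments. It was among the weakest of the 22, at percentile 3.6 of replicate 2 peaks by fold, and 68.2% of its window was repeat sequence. The window held a C/EBP string, TTGCACAA, 7 bp from the summit and a RUNX string at 119395216 to 119395221. The closest shared region was 61.1 kb upstream of the gene (chr9:119402178-119442148, plus strand), outside the limit, in the promoter of Acaa1a, with folds of 10.1 and 12.2.

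Among the type I receptors of the BMP branch, Bmpr1a had the strongest of the 6 regions by the smaller fold. This region, at chr14:34411508-34411933, lay in the 3′ UTR, in the last of 13 exons, 90908 bp downstream of the TSS of a 91.5 kb gene (chr14:34411068-34502546, minus strand). It therefore entered through the gene body and not through the distance limit, and the nearest TSS was that of Mmrn2, 36134 bp away. Folds were nearly equal, at 7.67 in replicate 1 (24 fragments) and 7.81 in replicate 2 (18 fragments), with −log10 q of 13.8 and 11.5. The control level was 2.26 and 1.43, slightly above the background of each list. The window held a RUNX string at 34411589 to 34411594 and an AGGTCA string at 34411728 to 34411733. No other peak lay in the 141.5 kb searched around Bmpr1a.

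Bmpr1b, a type I receptor known for its role in cartilage and ovary, had no peak in either replicate across the longest window of the 9, 382.3 kb around a gene of 332.3 kb (chr3:141837136-142169425, minus strand) with 4 TSS. Of the 443 protein-coding genes with a window at least as long, 84 (19.0%) also had none. The closest shared region was 90.0 kb upstream, in an intron of Pdlim5 at chr3:142259314-142259562, with folds of 6.17 and 8.12 (18 and 17 fragments). No TSS was nearer to it than that of Bmpr1b, so the gene nearest to this region was Bmpr1b although the region was not counted.

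Acvr1, a type I receptor of BMPs, had 2 shared regions and no unpartnered peak. Both lay just upstream of the gene (chr2:58446438-58566828, minus strand), inside intron 1 of 7 of Upp2, a uridine phosphorylase gene whose TSS is slightly closer to them. The nearer region, at chr2:58569423-58569671, was 2728 bp upstream of the Acvr1 TSS and 2222 bp from the TSS of Upp2. Its folds were 4.87 in replicate 1 (14 fragments) and 4.96 in replicate 2 (10 fragments), with −log10 q of 5.10 and 4.23, and its summits were 2 bp apart. The window was the poorest in GC of the 6, at 32.3%, and held CAGAC at 58569569 to 58569573, 15 bp from the centre, and a C/EBP string, TTGAGCAA, at 58569500 to 58569507.

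The farther Acvr1 region, at chr2:58574113-58574370, was 7424 bp upstream of the Acvr1 TSS and 6918 bp from that of Upp2. It was the stronger, with folds of 6.17 in replicate 1 and 8.57 in replicate 2 and 18 fragments in each, and both libraries had their summit at the same base, 58574252. An AGGTCA string, read as TGACCT at 58574275 to 58574280, and a C/EBP string, TTACGCAA at 58574280 to 58574287, shared 1 base 26 to 32 bp from that summit. No other shared region of the 6 was within 10 kb of a receptor TSS, and 7.4% of protein-coding genes had a shared region nearer than the nearer of them.

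Acvrl1, the type I receptor that binds BMP9 and BMP10 in endothelium, had 1 shared region, 15075 bp upstream of the gene (chr15:101128522-101145336, plus strand). It was intergenic, at chr15:101113232-101113572, and 2297 bp upstream of the TSS of Ankrd33. Folds were 4.87 in replicate 1 (14 fragments, −log10 q of 5.10) and 9.48 in replicate 2 (20 fragments, 15.0). The summits were 12 bp apart. Its window held CAGAC on both strands, read as GTCTG at 101113460 to 101113464, 15 bp from the centre, and as CAGAC at 101113520 to 101113524, with a RUNX string and an AGGTCA string farther upstream and no repeat base. Replicate 1 had 2 further peaks in the window without a partner. One was 41249 bp upstream, with a fold of 4.87 and 14 fragments, and the other 49006 bp downstream, inside Acvr1b, with a fold of 3.90 and 11 fragments.

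Acvr1b, the type I receptor of activins, had 6 peaks, the most of the 9 genes, but only 1 shared region. This region was in intron 1 of 8 at chr15:101191447-101191917, 17678 bp downstream of the TSS (gene body chr15:101174072-101213684, plus strand). Its folds were 6.50 in replicate 1 (19 fragments) and 10.8 in replicate 2 (23 fragments), the highest of the 6 regions in replicate 2, with −log10 q of 9.55 and 18.8. The nearest TSS was that of the microRNA gene Mir6962, 2119 bp away and inside Acvr1b. The summits lay 133 bp apart, and the window, with 53.2% GC and no repeat base, held TGAATCA at 101191770 to 101191776 and no other searched string.

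The 4 unpartnered peaks of Acvr1b were weak. Replicate 1 had a peak 3456 bp downstream of the TSS (fold 3.90, 11 fragments, also counted for Acvrl1) and another at chr15:101191050-101191309 (fold 4.87, 14 fragments), 267 bp from the replicate 2 peak of the shared region. Replicate 2 had a peak in intron 3 of 8 (fold 5.41, 11 fragments) and another 49263 bp downstream of the TSS (fold 4.51, 9 fragments), past the end of the gene and 786 bp from the TSS of A330009N23Rik. Acvrl1 and Acvr1b are neighbours on chromosome 15, so that their counts are not independent, and each shared region lay 60.6 kb or 63.2 kb from the TSS of the other gene.

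Eng, the co-receptor gene, had 1 peak of replicate 2 and none of replicate 1. This peak, at chr2:32607678-32607920, was 38845 bp upstream of the Eng TSS (gene body chr2:32646595-32682669, plus strand) and 765 bp downstream of a TSS of St6galnac6, in intron 1. With a fold of 6.77 and 14 fragments (−log10 q of 8.21) it was the strongest of the 10 unpartnered peaks, at about the middle of the replicate 2 list, and its window held none of the 11 strings. The closest peak of replicate 1 was 107128 bp away. Over the 10 unpartnered peaks, folds ranged from 3.25 to 6.77 and summits held 8 to 14 fragments, whereas the weakest peak of the replicate 2 list overall had 7 and that of replicate 1 had 9. At such pileups a region without a peak is one in which none was detected at this depth.

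Distances to the nearest shared region spread the 9 genes from near the front to past the middle of all genes. The share of protein-coding genes with a nearer region ran from 7.4% for Acvr1 to 64.2% for Bmpr2. The median distance from a TSS was 61.1 kb for the receptor genes and 84.7 kb for all protein-coding genes. In order, the distances were 2.7 kb for Acvr1, 15.1 kb for Acvrl1, 17.7 kb for Acvr1b, 47.5 kb for Acvr2a, 61.1 kb for Acvr2b, 68.6 kb for Eng, 90.0 kb for Bmpr1b, 90.9 kb for Bmpr1a and 149.8 kb for Bmpr2. The type I receptors Acvr1, Acvrl1 and Acvr1b were nearest, and Acvr2a was the closest of the type II receptors. When the windows reached 100 kb from a TSS, 5 of the 9 genes gained a further shared region (Acvr2b, Bmpr1b, Acvrl1, Acvr1b and Eng), beside 34.6% of all protein-coding genes, and Acvrl1 and Acvr1b each gained the region of the other.

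**Figure D3:**
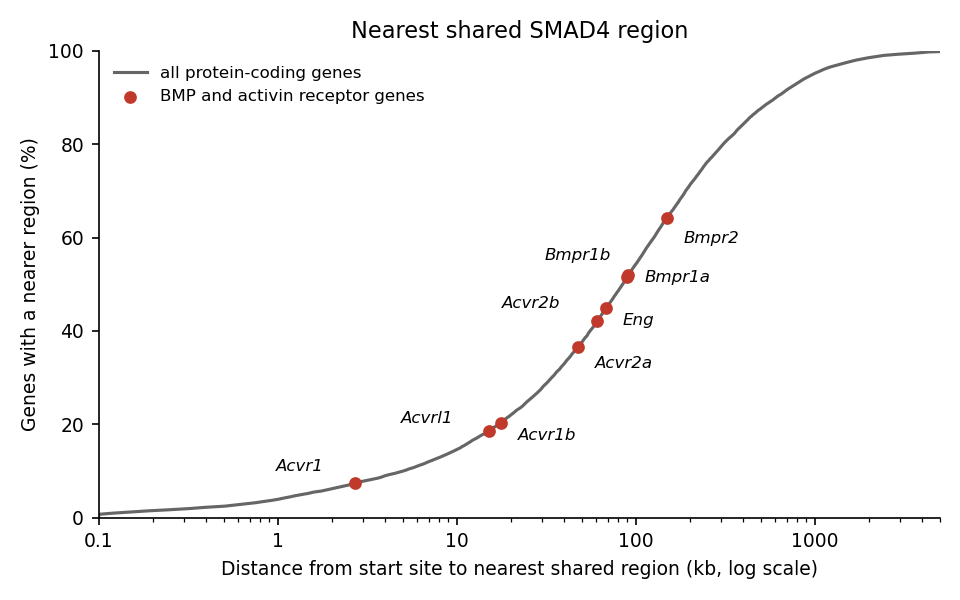
The curve gives, for each distance in kb (log scale), the percentage of the 20923 protein-coding genes whose nearest shared region is closer to a TSS, and the red points are the 9 receptor genes. The points run from 7.4% for Acvr1 to 64.2% for Bmpr2, with 6 of them between 36.5% and 64.2%.

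The other genes of the pathway were counted by the same search. Of the 5 remaining receptor genes of the superfamily, 4 had a shared region. Tgfbr1, the type I receptor of TGFβ, had 8, all nearest to its own TSS. Its strongest, at chr4:47315331-47315952, had folds of 13.3 and 21.7. Tgfbr2, the type II receptor of TGFβ, had 5, also all nearest to its own TSS, with top folds of 12.3 and 21.7. Of all protein-coding genes, 10.3% had 3 or more shared regions in the window. None of the 9 BMP and activin receptor genes did, and neither did the remaining receptors Acvr1c, Amhr2 and Tgfbr3. Beside that share, a count of none among 9 genes does not set them apart. Acvr1c, a type I receptor of the activin branch, had 1 with folds of 10.1 and 13.1, and Tgfbr3, the co-receptor betaglycan, had no peak. The windows of Tgfbr1 and Tgfbr2 were 133.0 kb and 137.7 kb long, close to the median of the 9. No test of the difference between the receptor groups was made, since the genes were listed with earlier results known.

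**Figure D4:**
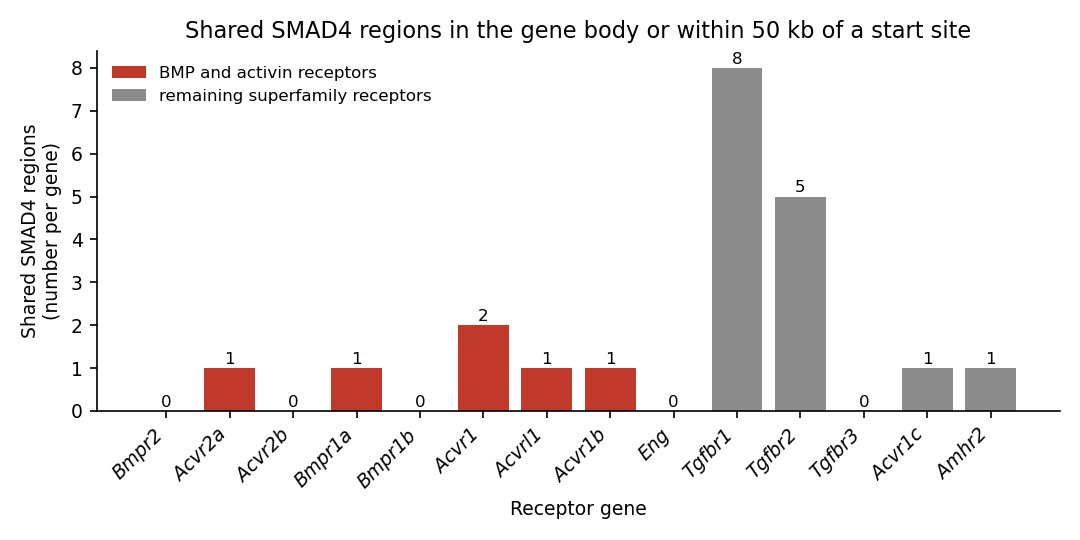
Bars give the number of shared SMAD4 regions in the gene body or within 50 kb of a TSS for the 9 BMP and activin receptor genes (red) and the 5 remaining receptors of the superfamily (grey). The red bars reach 2 at Acvr1, while Tgfbr1 has 8 and Tgfbr2 has 5.

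None of 12 BMP and activin ligand genes had a shared region, and 2 of them (Bmp5 and Mstn) had an unpartnered peak. A shared region was found for 2 of 5 co-receptors and pseudoreceptors (Rgmb and Hjv) and for 2 of 6 extracellular antagonists, of which Sost, a secreted inhibitor, had folds of 16.6 and 21.2. Of 6 proteins that act at the receptors inside the cell, 3 had one (Xiap, Smurf1 and Smurf2), with the highest folds at Xiap (14.0 and 14.9). Among receptor SMADs and Smad4, 4 of 6 had one, and among inhibitory SMADs and ID genes, which are the classical targets of BMP signals, 4 of 5 had one. The strongest of these were at Id3 (folds 17.2 and 28.9, with E2f2 as the nearest TSS) and Id1 (14.6 and 32.9), and Id2 had none. Over all 45 pathway genes outside the 9, 19 had a shared region (42.2%), beside 55.6% of the 9 and 39.1% of all protein-coding genes.

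As a check of the cells, all 10 genes that mark AMs (among them Siglecf, Marco, Pparg and Chil3) had a shared region, 40 in all. A shared region was also found for 3 of 6 epithelial, 1 of 4 endothelial and 1 of 4 T and B cell marker genes. None of 3 neutrophil marker genes had one, and 39.1% of all protein-coding genes did. The epithelial genes were Ager with 6 regions, Scgb1a1 with 5 and Hopx with 1, whereas the AM genes had a median of 3. None of the Ager regions had Ager as the nearest TSS. For Scgb1a1, 4 regions had its own TSS as the nearest, the strongest 76 bp upstream of it, and so did the Hopx region. Of the 10 AM genes, 9 had a region nearest to their own TSS. With such short lists this is a weak check. A SMAD4 region near a marker is not its expression, and whether the receptor genes are expressed in these cells was not analysed here. Of the endothelial markers, Pecam1 had 3 shared regions, the strongest with folds of 12.3 and 19.9. Kdr had 1 unpartnered peak of replicate 2, and Cdh5 and Tek had no peak in either replicate. The lists held 16369 peaks in replicate 1 and 19015 in replicate 2, of which 69.4% and 59.2% had a partner, with median folds of 5.52 and 6.77.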

How the data were processed

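SMAD4 HT-ChIPmentation peaks of 2 libraries from mouse AMs were analysed, and no file of the 2 input libraries was used. Reads were adapter-trimmed by the authors (Cutadapt) and mapped to mm10 (Bowtie2), after which PICARD marked duplicates and samtools kept properly paired reads that were not duplicates. The authors called peaks per sample with MACS3 at a q limit of 0.05 with input as control, so replicates were not pooled. Per the standard column layout of MACS3 peak lists, which have no header line here, each deposited peak carries a fold ratio, a −log10 p-value, a −log10 q-value and a summit distance. The deposited score was not used.

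Fragments at each summit (the pileup) and the control level were solved from the fold and p, which are (pileup + 1)/(control + 1) and a Poisson tail. All peaks were solved within 0.001 in −log10 p (100% in both lists), and the step was tested on simulated data. The control was at the genome-wide background in 79.5% and 81.0% of summits.

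Genes came from the curated RefSeq annotation (45657 transcripts, 26089 genes, 20 chromosomes). Shared regions were merged peaks of both lists overlapping by at least 1 bp, placed by the mean of the summits. All 9 genes are named; unpartnered peaks are described where a gene has no shared region, and the others were added after their values were seen. Pathway genes are given by counts with at most 3 per class by fold. The receptor genes and the lists were chosen with earlier results of these data known, so no test was run and background shares stand beside the counts. Replicate numbers follow accession order. Alternatives changed the overlap, q, fold, distance, annotation and string window, or left out a replicate. Python 3.11.15, pandas 2.3.3, numpy 2.4.6, scipy 1.17.1 and pysam 0.24.0 were used.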

Additional observations from a re-analysis of the deposited data

How the results depend on the processing

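With 2 replicates, 1 condition and no test, the results are counts, and an alternative count within 1.5 times the reported one was taken as unmoved. Of 34 alternative values of the main counts, 13 were within that limit and 21 were not. The number of shared regions around the receptor genes (6) was 3 at a minimum fold of 5, 12 within 100 kb of a TSS and 2 in gene bodies alone, an alternative chosen after the data were seen. The number of genes with a shared region (5) was 3 with summits within 100 bp (34.8% of all protein-coding genes), 3 at a minimum fold of 5 (33.2%), 3 in gene bodies or within 10 kb of a TSS (20.6%), 8 in gene bodies or within 100 kb (54.9%) and 2 in gene bodies alone (13.9%). The number of regions nearest to a receptor TSS (1, at Acvr2a) was 0 with 50% reciprocal overlap, summits within 100 bp, q under 0.001, a minimum fold of 5 or predicted transcripts added, and 2 among coding TSS alone. Matched strings in the regions (14) fell to 8 in windows of 50 bp each side, which are shorter by construction. Leaving out a replicate, so that all peaks of the other counted, gave 10 to 12 regions, 6 to 8 genes (53.4% of protein-coding genes without replicate 1), 3 to 3 nearest to a receptor TSS and 14 to 23 strings, with the higher values from replicate 2 alone. For single genes and strings, 105 of 143 values stayed within the limit. No paired analysis was possible because the replicate numbers were given in accession order, the inputs have no file here and no test was run. Pileups of 8 to 24 fragments limit which weak regions could be seen.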

Other observations

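Shared SMAD4 regions between 50 and 100 kb from a receptor TSS and outside the searched window were found for 5 of the 9 genes, beside 34.6% of all protein-coding genes. Acvr2b, Bmpr1b and Acvrl1 had 1 each, and that of Acvrl1 was the Acvr1b region already described. Acvr1b had 3, of which 1 was the Acvrl1 region, 1 was intergenic 70.1 kb downstream with folds of 9.10 and 19.4 (27 and 42 fragments), higher than any region within the limit, and 1 was 91.9 kb downstream in the promoter of Nr4a1, an orphan nuclear receptor gene, with folds of 5.20 and 9.48. Eng had 2, at 68.6 kb and 70.3 kb downstream near Mir3960, with folds of 4.55 and 10.4 and of 3.63 and 5.87. Bmpr2, Acvr2a, Bmpr1a and Acvr1 had none in that range.

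The promoters themselves were searched for the same strings after the data were seen, in short RefSeq windows around each start. That set held 10 promoters of 8 receptor genes, several of them of Bmpr1b. It held none of Acvrl1, whose promoter was therefore not searched. CAGAC was in 5 of the 10 promoters (4 genes), compared with 49.6% of 32817 promoters, and GGCGCC in 3 of the 10 (Bmpr2, Bmpr1a and Acvr1b), compared with 11.9%. The RUNX string, the C/EBP string, the STAT string, the AP-1 string and the SMAD palindrome were in 0 of the 10. Over all promoters their shares were 16.8%, 10.8%, 8.29%, 7.81% and 0.213%. The PU.1 string, the E-box, the nuclear receptor element and the RBPJ string were each in 1 of the 10. Of all promoters, 3.2%, 7.15%, 16.3% and 6.39% held them. With 10 promoters of 8 genes, these counts set no string apart. None of these promoters held a SMAD4 peak.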
